A study of Mus musculus with 12 samples.

Results

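The 10 genes described here, Eomes, Neurod1, Prox1, Dlx1, Dlx2, Fabp7, Sox11, Dcx, Igfbpl1 and Mki67, mark neural progenitors, dividing cells and immature neurons of the adult neurogenic niches and the olfactory bulb. They were chosen by symbol among the 38924 genes of the deposited tables, with no threshold on any measured value, and each symbol matched 1 Ensembl identifier. All 10 passed the filter on low counts, which 16493 genes passed. The set was proposed with results of these data known, so the adjusted p-values below set a difference against the spread between mice and are no independent support for the choice.

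The data are polyadenylated RNA sequencing of whole brains from 6-week-old mice, from 4 genotypes of 3 mice, each mouse sequenced as 1 library. The study compared high stepper mutants of Rorb, the gene of the nuclear receptor ROR beta, to describe the effect of each mutation. Rorbh1/h1 mice, called h1 below, were on C57BL/6J. Rorbh2/h2 mice (h2) were on B6(Cg)-Tyrc-2J/J, an albino strain with a mutated tyrosinase gene. Rorbh4/h4 mice (h4) were on B6.129S7-Il1r1tm1Imx/J, which carries a targeted interleukin 1 receptor gene, and wild type mice (WT) were on C57BL/6J. The mutation and the background strain cannot be told apart in h2 and h4, whose strains have no wild type group here. The labels name no litters.

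In the adult mouse brain, new neurons form in the subventricular zone along the lateral ventricles and in the dentate gyrus of the hippocampus. Glia-like stem cells give rise to dividing intermediate cells and then to migrating neuroblasts, which become interneurons of the olfactory bulb or granule cells of the dentate gyrus. Several of the genes also mark mature cells: Neurod1 stays on in cerebellar and dentate granule neurons, Prox1 in dentate granule neurons, Dlx1 in forebrain interneurons, Eomes in projection neurons of the olfactory bulb and in unipolar brush cells of the cerebellum, and Fabp7 in astrocytes. In RNA from a whole brain, fewer cells of a type and less RNA per cell cannot be told apart.

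The promoter sequences of the 2 genes that differed between h4 and WT are shown so that the letters upstream of them can be read beside their values. Both come from RefSeq on GRCm38.p6, run 5′ to 3′ on the plus strand and end at or before the annotated gene, and capitals mark matches to the motifs searched. The Fabp7 sequence covers chr10:57784673-57784880 and the Eomes sequence chr9:118477939-118478188, and for Fabp7 the 42 bases next to the RefSeq start were left out because they lie inside the GENCODE gene.
Fabp7: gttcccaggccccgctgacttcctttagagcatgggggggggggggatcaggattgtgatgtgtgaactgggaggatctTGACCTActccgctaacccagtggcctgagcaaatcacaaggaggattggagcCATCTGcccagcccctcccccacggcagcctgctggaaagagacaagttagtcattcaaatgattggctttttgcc
Eomes: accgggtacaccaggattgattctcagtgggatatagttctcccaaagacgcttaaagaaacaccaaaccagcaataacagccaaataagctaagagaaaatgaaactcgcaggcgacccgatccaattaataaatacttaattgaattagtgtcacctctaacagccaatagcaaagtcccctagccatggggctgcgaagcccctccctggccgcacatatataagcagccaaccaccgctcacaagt

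A set of 4 motifs was searched on both strands in the 250 bases before each RefSeq start, for which 9 of the 10 genes had a window and Igfbpl1 had none. TAGGTCA, a core of the element that ROR receptors bind, was in 2.23% of 32851 mouse windows, and among the 9 genes it was found in Fabp7, as TGACCTA beginning 171 bases before the RefSeq start. The E-box CAGATG was in 14.4% of all windows and was found in Fabp7, as CATCTG beginning 118 bases before the start, and in Prox1. The E-box CAGCTG, in 13.0% of all windows, was found in Sox11, and the homeodomain core TAATTA, in 4.84%, in Dcx. The GENCODE gene held 92 and 187 bases of the 2 Dcx windows, and both Dcx matches lay inside it. The whole Dlx1 window, 1 Prox1 window without a match and 115 bases of the Neurod1 window also lay inside their annotated genes. The windows of Eomes, Neurod1, Dlx1, Dlx2 and Mki67 held none of these letters. No matches overlapped, and a match describes the letters and is not a measured binding site.

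Libraries held 14513825 to 24694178 expected counts. Rorb itself stood at 22.6 to 33.1 CPM (expected counts scaled to a common library total) in h1, 22.6 to 31.1 CPM in h2, 8.65 to 9.11 CPM in h4 and 16.3 to 18.4 CPM in WT. The fall in h4 passed the edgeR test (log2 fold change -0.98, SE 0.20, adjusted p = 0.0309), while the log2 values of 0.62 in h1 and 0.70 in h2 did not (adjusted p = 0.242 and 0.147), although DESeq2 called both and edgeR called the h2 value at adjusted p = 0.00269 when h1 replicate 2 was left out and at 0.0290 when h2 replicate 3 was. The h4 call on Rorb was lost with Xist class as a covariate (adjusted p = 0.0699) and without any 1 of the 3 h4 or 3 WT libraries, at adjusted p up to 0.12. Xist, which marks female mice, was above 100 CPM in 1 h1, 1 h2, 2 h4 and 3 WT libraries, so the sexes were not balanced between genotypes.

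Per length of transcript, Fabp7 had the highest deposited level of the 10 genes, at 91.6 to 253 TPM (abundance scaled for transcript length) over the 12 libraries, and Neurod1 followed at 57.1 to 82.7 TPM. Dlx1 lay at 15.03 to 21.1 TPM, Prox1 at 11.3 to 13.5 TPM and Dcx at 8.75 to 12.01 TPM, and the ranges of Prox1 and Dcx overlapped. Eomes (1.54 to 5.04 TPM), Sox11 (2.22 to 3.55 TPM), Igfbpl1 (1.18 to 2.51 TPM) and Dlx2 (up to 3.56 TPM) overlapped one another, and Mki67 was lowest at 0.52 to 1.15 TPM. The expected counts behind these values ran from 29 to 57 per library for Igfbpl1, and from 1146 to 2037 for Neurod1. Between mice of 1 genotype, log2 CPM varied least for Prox1 (SD 0.066) and Dcx (SD 0.090) and most for Eomes (SD 0.32) and Igfbpl1 (SD 0.28).

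**Figure D1:**
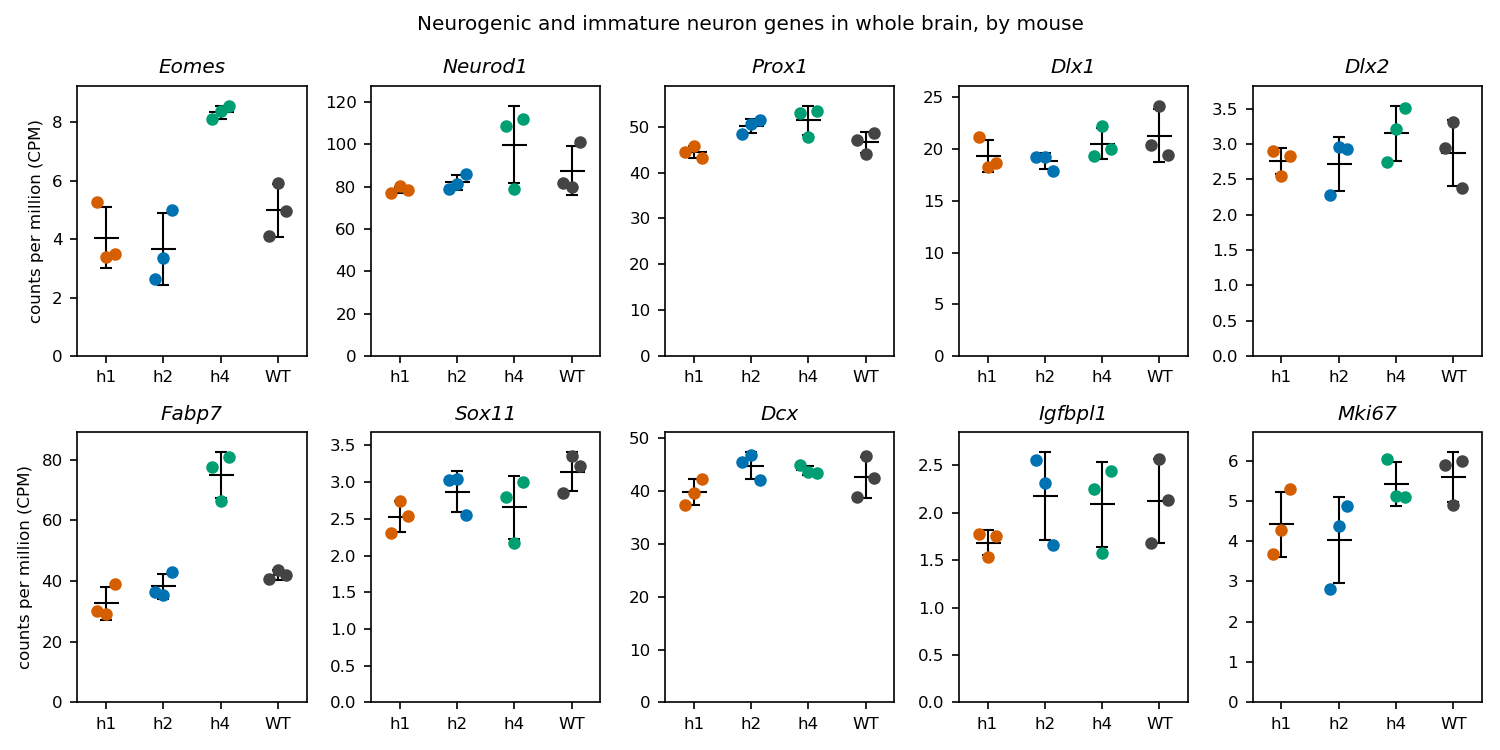
CPM of the 10 genes by mouse, with 3 points per genotype and the mean and SD as bars, on axes that start at 0. Eomes and Fabp7 lie higher in all 3 h4 mice than in any mouse of the other 3 genotypes, and the points of the other 8 genes in h4 overlap those in WT.

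Fabp7 (ENSMUSG00000019874, chr10:57784881-57788450 in the GENCODE annotation of GRCm38, plus strand) encodes a brain fatty acid binding protein of radial glia, stem cells and astrocytes, and it was higher in h4. It stood at 30.2, 29.0 and 38.9 CPM in h1, at 36.5, 35.5 and 43.0 CPM in h2, at 77.5, 66.5 and 80.8 CPM in h4, and at 40.6, 43.8 and 41.8 CPM in WT. Every h4 mouse was above every other mouse, the 3 h1 mice were all below the 3 WT mice, and 1 h2 mouse lay within the WT range. Fabp7 averaged 74.9 ± 7.5 CPM in h4 and 42.1 ± 1.6 CPM in WT (SD, n = 3 each), a fitted fold of 1.77 (log2 fold change 0.82, SE 0.12, edgeR adjusted p = 0.00484). The difference was called in each of the 12 fits that left out 1 library, with log2 fold changes of 0.77 to 0.90. In h1 the log2 fold change over WT was -0.35 (SE 0.12, adjusted p = 0.359), but DESeq2 called that difference (adjusted p = 0.0303), and so did edgeR without h1 replicate 3 (-0.50, adjusted p = 0.00902). In h2 it was -0.13 (SE 0.12, adjusted p = 0.761).

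Eomes (ENSMUSG00000032446, chr9:118478212-118486132, plus strand) encodes the T-box factor TBR2 of intermediate progenitors on the glutamatergic path, and it too was higher in h4. It stood at 5.27, 3.39 and 3.4999 CPM in h1, at 2.62, 3.36 and 5.01 CPM in h2, at 8.12, 8.37 and 8.55 CPM in h4, and at 4.11, 5.91 and 4.96 CPM in WT. The 3 h4 mice lay close together and above all 9 other mice, while h1, h2 and WT overlapped. Eomes averaged 8.35 ± 0.22 CPM in h4 and 4.99 ± 0.90 CPM in WT (SD, n = 3 each), a fitted fold of 1.66 (log2 fold change 0.73, SE 0.19, edgeR adjusted p = 0.036). The call rested near the threshold: it was lost with Xist class as a covariate (log2 fold change 0.77, adjusted p = 0.0502) and without h2 replicate 2, any h4 replicate, WT replicate 1 or WT replicate 3. Over the 12 fits that left out 1 library, the log2 fold change was 0.61 to 0.87 and the adjusted p reached 0.158. DESeq2 gave Eomes no adjusted p under its own filter, at an unadjusted p of 0.000586. The log2 fold change was -0.30 in h1 (SE 0.20, adjusted p = 0.678) and -0.41 in h2 (SE 0.21, adjusted p = 0.467).

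Neurod1 (ENSMUSG00000034701, chr2:79452521-79456751, minus strand) encodes a bHLH factor that drives the maturation of new neurons and follows Eomes on the glutamatergic path. It stood at 77.1, 80.1 and 78.3 CPM in h1, at 79.0, 81.4 and 85.9 CPM in h2, at 108.8, 78.7 and 111.8 CPM in h4, and at 81.7, 80.0 and 101.0 CPM in WT. In all, 2 h4 mice and 1 WT mouse stood above all the rest, and h4 replicate 2 lay below all 3 WT mice. Over WT its log2 fold change was -0.15 in h1, -0.09 in h2 and 0.18 in h4 (SE 0.13, edgeR adjusted p = 0.565), none of them called. Without h4 replicate 2 the h4 value became 0.32 and was called (adjusted p = 0.0465).

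Prox1 (ENSMUSG00000010175, chr1:190118035-190170714, minus strand) encodes a homeodomain factor needed for dentate granule cell identity. It stood at 44.4, 45.7 and 43.2 CPM in h1, at 48.4, 50.5 and 51.5 CPM in h2, at 53.0, 47.7 and 53.4 CPM in h4, and at 47.1, 44.1 and 48.6 CPM in WT. The 2 highest values were in h4, all 3 h1 mice lay below every h2 and h4 mouse, and WT overlapped all 3 mutants. Over WT the log2 fold change was -0.06 in h1 (SE 0.05), 0.11 in h2 (SE 0.05) and 0.13 in h4 (SE 0.05), with edgeR adjusted p of 0.787, 0.43 and 0.168. The kit does not mark strand, so reads of Prox1 cannot be told apart from those of the antisense gene Prox1os (0.93 to 2.21 CPM). Neurod1 shares exon bases with Cerkl (2.26 to 3.40 CPM) on the same strand, where strand would not separate their reads. Eomes overlaps the antisense gene Gm33460, which was not analysed here.

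Dlx1 (ENSMUSG00000041911, chr2:71528113-71533981, plus strand) and Dlx2 (ENSMUSG00000023391, chr2:71543408-71546754, minus strand) are neighbouring homeobox genes that specify GABAergic neuroblasts and interneurons. Dlx1 stood at 21.2, 18.3 and 18.6 CPM in h1, at 19.3, 19.3 and 17.9 CPM in h2, at 19.4, 22.2 and 19.97 CPM in h4, and at 20.4, 24.2 and 19.4 CPM in WT. Dlx2 stood at 2.90, 2.55 and 2.83 CPM in h1, 2.27, 2.96 and 2.93 CPM in h2, 2.74, 3.21 and 3.51 CPM in h4, and 2.94, 3.31 and 2.38 CPM in WT. The h2 mice lay just below WT for Dlx1, and the groups overlapped in every other comparison of these genes with WT. For Dlx1 the log2 fold change over WT was -0.13 in h1, -0.18 in h2 (SE 0.08, edgeR adjusted p = 0.379) and -0.06 in h4, and for Dlx2 it was -0.05 in h1, -0.06 in h2 and 0.12 in h4. The 95% intervals for h4 were -0.22 to 0.10 for Dlx1 and -0.21 to 0.45 for Dlx2. Reads of Dlx1 cannot be told apart from those of its antisense gene Dlx1as where their exons overlap (1.33 to 3.12 CPM counted to Dlx1as).

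Dcx (ENSMUSG00000031285, chrX:143855842-143933311, minus strand) encodes doublecortin, the microtubule protein of migrating neuroblasts. It stood at 37.4, 39.7 and 42.3 CPM in h1, at 45.5, 46.9 and 42.1 CPM in h2, at 44.9, 43.6 and 43.4 CPM in h4, and at 38.9, 46.7 and 42.4 CPM in WT. All 3 mutant groups overlapped WT. The log2 fold change over WT was -0.09 in h1, 0.07 in h2 and 0.03 in h4. The 95% interval of the h4 value, -0.09 to 0.16, was the narrowest among Dcx, Sox11 and Igfbpl1.

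Sox11 (ENSMUSG00000063632, chr12:27334264-27342574, minus strand) encodes an SRY-box factor of early postmitotic neurons. It stood at 2.31, 2.74 and 2.54 CPM in h1, at 3.03, 3.04 and 2.55 CPM in h2, at 2.80, 2.18 and 3.00 CPM in h4, and at 2.85, 3.35 and 3.22 CPM in WT. The 3 h1 mice lay below the 3 WT mice, and h2 and h4 overlapped WT. The log2 fold change over WT was -0.30 in h1 (SE 0.16, edgeR adjusted p = 0.565), -0.14 in h2 and -0.25 in h4 (SE 0.17, adjusted p = 0.459).

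Igfbpl1 (ENSMUSG00000035551, chr4:45809468-45826923, minus strand), which encodes a secreted protein related to the insulin-like growth factor binding proteins, had the fewest counts of the 10. It stood at 1.77, 1.53 and 1.75 CPM in h1, at 2.55, 2.31 and 1.66 CPM in h2, at 2.25, 1.58 and 2.43 CPM in h4, and at 1.68, 2.56 and 2.13 CPM in WT. Each mutant group overlapped WT, and the log2 fold change was -0.32 in h1 (SE 0.21, edgeR adjusted p = 0.668), 0.01 in h2 and -0.04 in h4. The h4 95% interval ran from -0.46 to 0.38, and shifts within that span could not be told apart.

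Mki67 (ENSMUSG00000031004, chr7:135689784-135716361, minus strand) encodes Ki-67, a nuclear protein of dividing cells of any type. It stood at 3.69, 4.27 and 5.29 CPM in h1, at 2.82, 4.37 and 4.88 CPM in h2, at 6.03, 5.11 and 5.09 CPM in h4, and at 5.88, 4.89 and 6.00 CPM in WT. The 3 h2 mice lay below the 3 WT mice, the highest h2 value just under the lowest WT value, and h1 and h4 overlapped WT. The log2 fold change over WT was -0.32 in h1 (SE 0.16, edgeR adjusted p = 0.513), -0.43 in h2 (SE 0.16, adjusted p = 0.27) and -0.05 in h4 (SE 0.16, adjusted p = 0.907).

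Counted over the 10 genes, h4 against WT gave 2 called higher and none called lower, where 1.62% of all genes tested were called higher and 4.54% in either direction. The libraries of these 2, Eomes and Fabp7, did not overlap with WT, as for 12.1% of all genes tested on the higher side. Of the 10, 6 had a fitted value above 0 and 4 below, where 46.9% of all genes were below. Their median log2 fold change was 0.08, against 0.01 over all genes.

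In h1 against WT, all 10 genes had a fitted log2 fold change below 0, where 49.8% of all genes did, and the median was -0.22 against 0.00 over all genes. None was called by edgeR, where 0.625% of all genes were. Fabp7, which DESeq2 called, was the only one with an unadjusted p under 0.05, where 1617 of all 16493 genes had one. Fabp7 and Sox11 had h1 libraries wholly below WT, as did 8.72% of all genes. The 10 values stayed below 0 in every setting tried but 1: without WT replicate 2, 1 of the 10 was above 0 and the median was -0.16. With Xist class as a covariate the median was -0.13. The h1 libraries were also those in which the fewest of the 10 exceeded the median of the 12 libraries, with 2, 0 and 1 of 10 in h1, 4, 6 and 5 in h2, 7, 6 and 10 in h4, and 5, 7 and 7 in WT.

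In h2 against WT, 7 of the 10 genes had a fitted log2 fold change below 0, where 48.7% of all genes did, and the median was -0.11. None was called by edgeR, where 0.691% of all genes were, and none by DESeq2. An unadjusted p under 0.05 was found for 3 (Prox1 above 0, Dlx1 and Mki67 below), as for 1893 of all 16493 genes. The libraries of Dlx1 and Mki67 lay wholly below WT, as did those of 7.53% of all genes. For the mean of the 3 mutants against WT, edgeR called no gene of the 10, where it called 1.10% of all genes. DESeq2 gave an adjusted p to 5 of the 10 in this comparison, Mki67 not among them, and called none of those 5. Of the 10, Mki67 alone had an unadjusted edgeR p under 0.05, where 2064 of all 16493 genes did. The 3 comparisons with WT share the same 3 WT libraries.

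**Figure D2:**
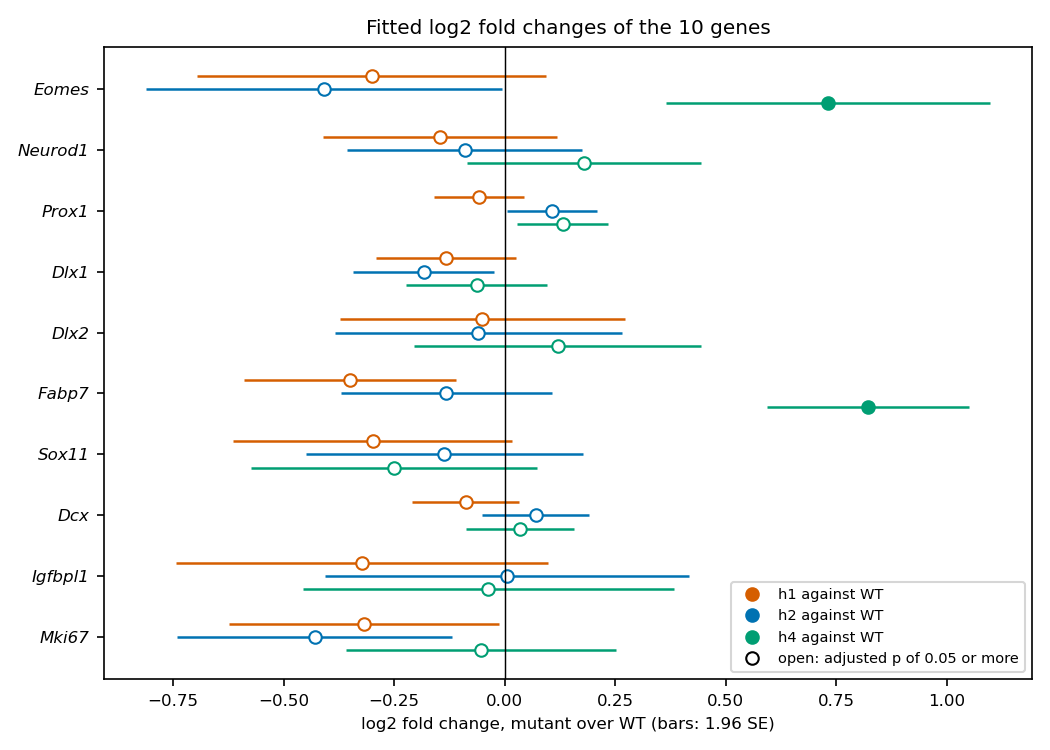
Fitted log2 fold change of each gene in h1, h2 and h4 over WT, with bars of 95% intervals and filled points where the edgeR adjusted p was under 0.05. The filled points are Eomes and Fabp7 in h4, at 0.73 and 0.82, and all 10 h1 points lie left of 0.

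Set directly against the other mutants, h4 was higher for Eomes and Fabp7. By the fitted folds, Fabp7 was 2.25 times as high in h4 as in h1 (log2 fold change 1.17, SE 0.12, edgeR adjusted p = 0.00112) and 1.94 times as high in h4 as in h2 (0.95, SE 0.12, adjusted p = 0.00277). Eomes, by the same measure, was 2.05 times as high in h4 as in h1 (1.03, SE 0.19, adjusted p = 0.00629) and 2.203 times as high in h4 as in h2 (1.14, SE 0.20, adjusted p = 0.00403). Both genes were called in these 2 comparisons in each of the 12 fits without 1 library. The 2 differences are between mutants on different background strains.

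Prox1 was also called in h4 against h1 (log2 fold change 0.19, SE 0.05, adjusted p = 0.034), but not by DESeq2 (adjusted p = 0.0537), with Xist class as a covariate (0.0738) or without any 1 of h1 replicates 1, 2 and 3 and h4 replicates 1 and 3 (up to 0.156). In h4 against h2 the Prox1 value was 0.02 (SE 0.05, adjusted p = 0.873). Neurod1 had values of 0.33 in h4 against h1 (SE 0.14, adjusted p = 0.24) and 0.27 in h4 against h2 (SE 0.14, adjusted p = 0.371), which became 0.47 and 0.41 and were called without h4 replicate 2 (adjusted p = 0.00693 and 0.0197).

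In all, 3 of the 10 were called in h4 against h1, each higher, where 2.11% of all genes were called higher and 4.64% in either direction, and 4 had h4 libraries wholly above h1, as did 14.8% of all genes. In h4 against h2, 2 were called, both higher, where 1.54% of all genes were called higher and 3.22% in either direction, and 4 had h4 libraries wholly above h2, as did 12.1% of all genes. Between h2 and h1 none was called by edgeR, where 0.722% of all genes were, nor by DESeq2. In that comparison 2 genes, Prox1 and Dcx, had an unadjusted p under 0.05 with higher values in h2. Over all genes, 1564 of 16493 had one in either direction. Prox1 alone had h2 libraries wholly above h1, as did 9.06% of all genes.

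Among 22 genes of stem cells and radial glia, 21 were tested, and edgeR called 4 higher and none lower in h4 against WT, where 1.62% of all genes were called higher, with a median log2 fold change of 0.08. Thbs4, a thrombospondin gene of subventricular astrocytes, rose by 0.80 on the log2 scale (SE 0.17, edgeR adjusted p = 0.0135), with 8.39, 14.4 and 12.8 CPM in h4 against 6.86, 7.68 and 5.80 CPM in WT. Tnc, the gene of the matrix protein tenascin C, rose by 0.51 (SE 0.12, adjusted p = 0.0215), with 22.2, 17.6 and 20.9 CPM in h4 against 14.8, 12.2 and 15.3 CPM in WT. The filament gene Gfap rose by 0.38 (SE 0.06, adjusted p = 0.00168) and the glutamate transporter gene Slc1a3 by 0.15 (SE 0.03, adjusted p = 0.00424). The h4 values of all 4 lay above those of WT. The summed level of the list was 2014 to 2120 CPM in h4 and 1800 to 1890 CPM in WT, and the number of members called higher ran from 2 to 6 over the other settings, lowest without h4 replicate 3 or WT replicate 1. DESeq2 gave Thbs4 no adjusted p. Thbs4 was not called in a fit of h4 and WT alone (adjusted p = 0.105) or without h4 replicate 3 or WT replicate 1 (up to 0.0786), nor Tnc with Xist class as a covariate (0.054) or without h4 replicates 1 or 3 or WT replicates 1 or 2 (up to 0.0964).

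Of 31 cell cycle genes tested beside Mki67, none was called in h4 against WT by edgeR or DESeq2. By edgeR, 4.54% of all genes were called in that comparison, and 1 of the 31 had an unadjusted p under 0.05. The most abundant, Ccnd2 (cyclin D2) and Pcna (the replication clamp), had log2 values of 0.13 and 0.09. Their summed level was 263 to 275 CPM in h4 and 252 to 262 CPM in WT. In h1 and h2 none was called either, where edgeR called 0.625% and 0.691% of all genes. An unadjusted p under 0.05 was found for 2 and 5 genes of the list, all lower. Over all 16493 genes, 1617 in h1 and 1893 in h2 had one. In h4 against WT, more of all genes had one than in h1 or h2. The h4 counts of the lists below are to be read beside that larger share.

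Of 24 neuroblast and immature neuron genes tested, edgeR called 1 higher and 3 lower in h4 against WT, where 4.54% of all genes were called in either direction, with a median of -0.02. The tubulin gene Tubb2b rose by 0.21 (edgeR adjusted p = 0.00938), while Marcksl1, a MARCKS-like protein gene, fell by 0.23 (adjusted p = 0.00276), Bcl11b, a zinc finger factor also of mature projection neurons, by 0.21 (adjusted p = 0.0226), and Dpysl5, a growth cone protein gene, by 0.17 (adjusted p = 0.0422). The libraries of Bcl11b overlapped between h4 and WT. Over the other settings 0 to 1 of the list were higher and 1 to 5 lower. The calls on Tubb2b, Bcl11b and Dpysl5 were each lost without WT replicate 1, WT replicate 2 or h4 replicate 1, those on Bcl11b and Dpysl5 also without h4 replicate 3, and that on Dpysl5 also without h2 replicate 3 or WT replicate 3, at adjusted p up to 0.177. Bcl11b was not called in a fit of h4 and WT alone (adjusted p = 0.0630), nor Dpysl5 by DESeq2 (0.0576) or with Xist class as a covariate (0.0679). Marcksl1 was called without any 1 library and stood at a mean of 63.6 CPM in h4 and 74.3 CPM in WT.

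Of 13 genes tested on the Eomes and Neurod1 path, edgeR called 2 higher and 1 lower in h4 against WT, where 4.54% of all genes were called in either direction. The bHLH gene Neurod4 rose by 1.95 at a low level (SE 0.52, edgeR adjusted p = 0.0272), with 0.71, 0.38 and 0.62 CPM in h4 against 0.14, 0.09 and 0.20 CPM in WT. It stood at 0.25, 0.46 and 0.54 CPM in h1 and at 0.48, 0.57 and 0.25 CPM in h2. Both groups thus also lay above every WT mouse and overlapped h4. The expected counts of Neurod4 were 2 to 4 per library in WT and 7 to 13 in h4. Gadd45g, a growth arrest and DNA damage response gene, rose by 0.69 (SE 0.14, adjusted p = 0.0104), with means of 14.6 CPM in h4 and 9.01 CPM in WT, and Tbr1, a T-box factor of cortical projection neurons that follows Eomes, fell by 0.19 (adjusted p = 0.0341), with means of 50.4 CPM in h4 and 57.3 CPM in WT. DESeq2 gave Neurod4 no adjusted p. Over the other settings 0 to 2 were higher and 0 to 2 lower. All 3 calls were lost without WT replicate 1 or WT replicate 2, those on Neurod4 and Tbr1 also without h4 replicates 1 or 3, and that on Tbr1 also without h4 replicate 2 or with Xist class as a covariate, at adjusted p up to 0.211.

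Of 16 genes tested of the Dlx pathway and of olfactory bulb interneuron fate, none was called in h4 against WT by edgeR or DESeq2, with 3 at an unadjusted p under 0.05. Its most abundant genes, the GABA synthesis genes Gad1 and Gad2, had log2 values of 0.09 and 0.02. Among the 176 distinct genes tested in the 11 lists other than oligodendrocyte precursors, edgeR called none in h1 or h2. Of them, 23 in h1 and 24 in h2 had an unadjusted p under 0.05, where 1617 and 1893 of all 16493 genes did. DESeq2 called 1 in h1, Gfap (higher, adjusted p = 0.0267), which is in both the stem cell and the astrocyte list.

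**Figure D3:**
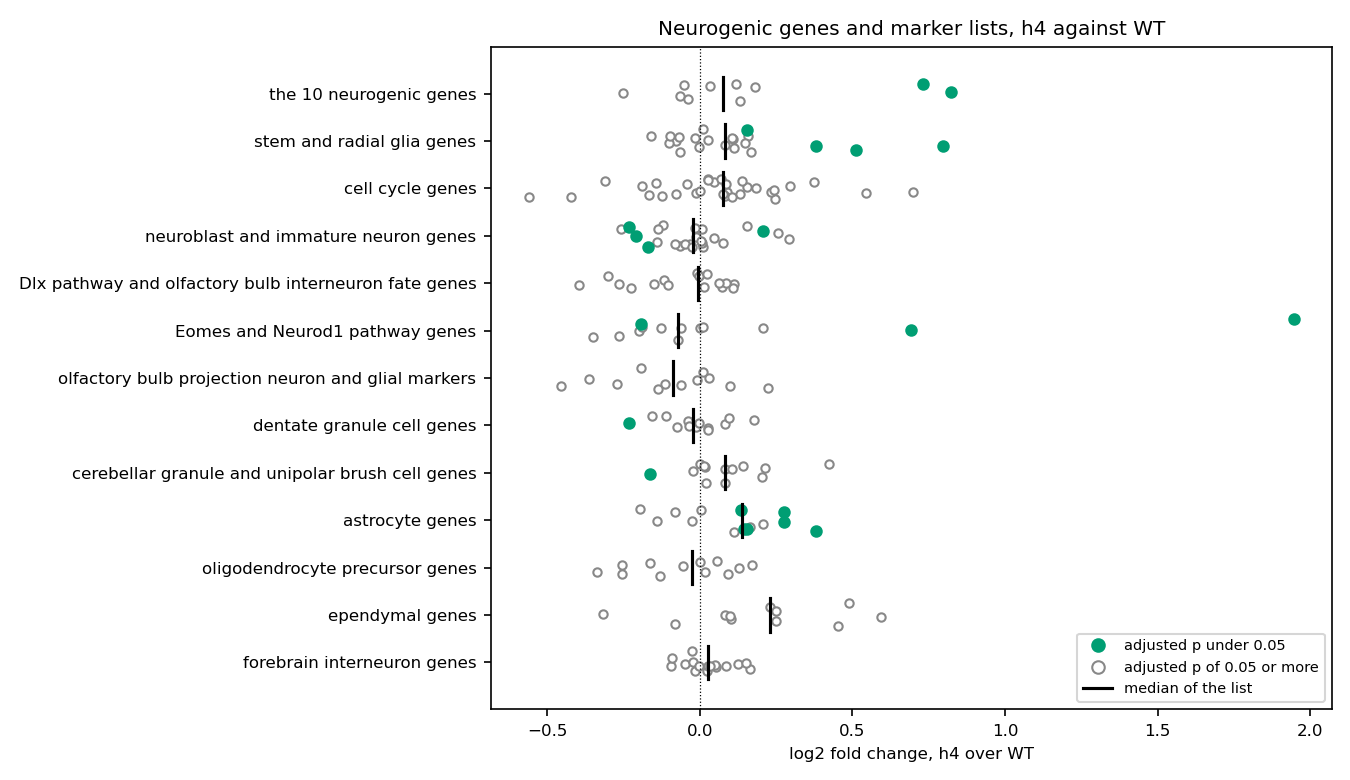
Log2 fold change in h4 over WT of the 10 genes and of 12 lists of related genes and cell type markers, 1 point per gene, filled where the edgeR adjusted p was under 0.05, with the list's median as a bar. Filled points lie to the right in the stem and radial glia list (4 of 21) and the astrocyte list (6 of 14), and the cell cycle list has none.

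Markers of other cells that hold these transcripts were set beside the values. Of 14 astrocyte genes, edgeR called 6 higher and none lower in h4 against WT, where 1.62% of all genes were called higher, while DESeq2 called 6 higher and 2 lower. The 2 lower were Slc1a2 (DESeq2 log2 fold change -0.14, adjusted p = 0.0263) and Ntsr2 (-0.20, adjusted p = 0.0357). Those higher by both tools include S100b (log2 fold change 0.28, SE 0.04, edgeR adjusted p = 7.91e-05), Aldh1l1 (0.28, SE 0.05, adjusted p = 0.00124), Gfap and Slc1a3, the last 2 also in the stem cell list, and over the other settings the higher count was 4 to 6 and the lower count 0 to 2. The summed astrocyte level, which adds genes that were higher and lower in h4, was 6416 to 6508 CPM in h4 and 6280 to 6470 CPM in WT. These markers' part in the Fabp7 difference was not tested. In h1 the same sum was 6502 to 6771 CPM, above all 3 WT libraries, and the mean of Fabp7 was lowest in h1.

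For Neurod1 and Eomes, 13 cerebellar granule and unipolar brush cell genes were tested, of which edgeR called none higher in h4 against WT, with 2 of them higher at an unadjusted p under 0.05, and Cadps2, a vesicle release gene, fell by 0.16 (edgeR adjusted p = 0.00428). The summed level was 1444, 1210 and 1512 CPM in the 3 h4 libraries and 1303, 1250 and 1395 CPM in the 3 WT libraries. The h4 library with the lowest Neurod1, replicate 2, had the lowest sum of all 12 libraries, and the WT library with the highest Neurod1, replicate 3, the highest of WT. That h4 library was also the only h4 library with low Xist. The part of the cerebellar markers and of sex in the Neurod1 values was not tested. Without h4 replicate 2, 3 of these genes were called higher, and 1 was with DESeq2, with Xist class as a covariate, with no low-count filter or without WT replicate 3. Lmx1a, a factor of unipolar brush cells named outside the rule, had a log2 value of 0.42 (SE 0.30, adjusted p = 0.496).

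**Figure D4:**
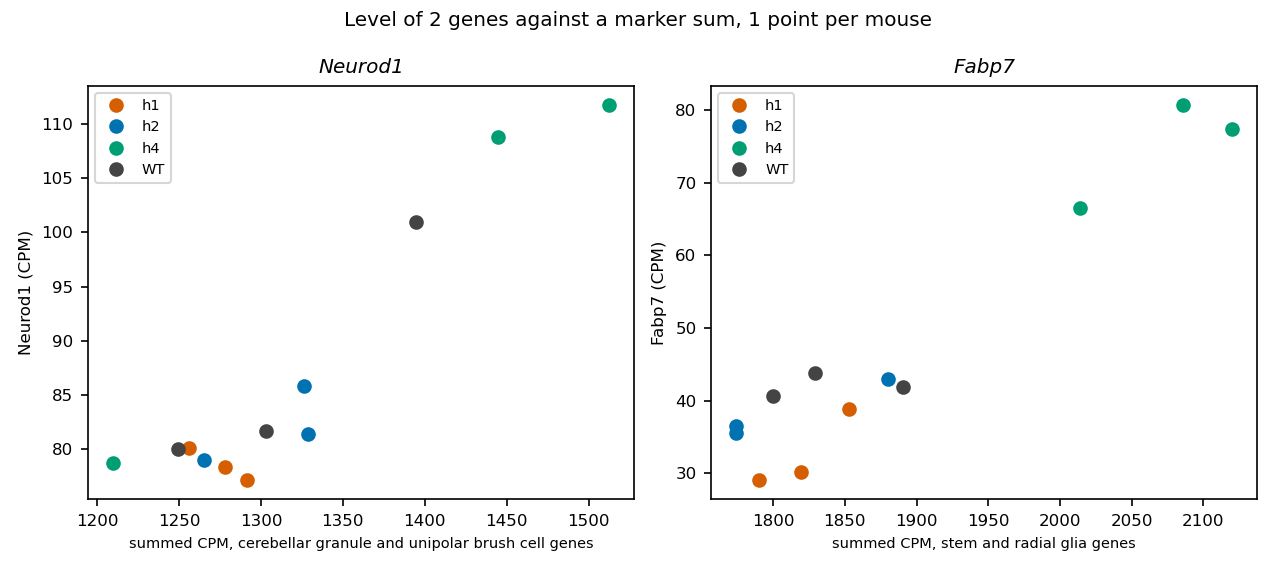
CPM of Neurod1 against the summed CPM of cerebellar granule and unipolar brush cell genes, and of Fabp7 against that of stem and radial glia genes, 1 point per mouse, with axes that do not start at 0. The h4 mouse at 78.7 CPM of Neurod1 has the lowest cerebellar sum, 1210 CPM, and the 3 h4 mice have the highest Fabp7 and the highest stem and radial glia sums, 2014 to 2120 CPM.

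The olfactory bulb is a further source of Eomes. Of 12 projection neuron and glial markers tested, none was called in h4 against WT by edgeR or DESeq2, and 1 had an unadjusted p under 0.05. Kctd12 and Slc17a6, the most abundant, had log2 values of 0.01 and -0.11, and the summed level was 382 to 401 CPM in h4 and 399.9 to 402 CPM in WT. Cdhr1, a cadherin of mitral and tufted cells named outside the rule, had 8.23, 7.29 and 6.06 CPM in h4 against 5.97, 12.7 and 5.85 CPM in WT, so it was highest in WT replicate 2, which also had the highest Eomes of the 3 WT mice. The part of these markers in the Eomes values was not tested. Doc2g, also of mitral and tufted cells and named outside the rule, had a log2 value of -0.36 (SE 0.37, edgeR adjusted p = 0.683). It stood at 4.18, 2.63 and 1.89 CPM in h4 against 2.88, 5.72 and 2.42 CPM in WT, and was also highest in WT replicate 2. Cdhr1 and Doc2g were small parts of the summed level, so that sum cannot show differences in them. Tbx21, a mitral and tufted cell factor, was too low to test, at 0 to 0.33 CPM over the 12 libraries.

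For Prox1, 14 dentate granule cell genes were tested, of which neither tool called any higher in h4 against WT, with 1 of them higher at an unadjusted p under 0.05, and Pdzd2, a PDZ domain protein gene, fell by 0.23 (edgeR adjusted p = 0.0244, up to 0.162 without h4 replicates 1 or 3 or WT replicates 1 or 2), and the summed level was 835 to 893 CPM in h4 and 872 to 889 CPM in WT. For Dlx1 and Dlx2, none of 16 forebrain interneuron genes was called in h4 by either tool, with 3 at an unadjusted p under 0.05, and the summed level was 1500 to 1603 CPM in h4 and 1502 to 1513 CPM in WT. For dividing cells, none of 12 oligodendrocyte precursor genes was called by edgeR in h4, where DESeq2 called 2 lower and 4 had an unadjusted p under 0.05. In h1 the factors Olig1 and Olig2 and the gene Bcas1 of premyelinating cells were higher than in WT, by log2 values of 0.27, 0.29 and 0.16 (edgeR adjusted p = 0.00598, 0.0273 and 0.0428), and in h2 Bcas1 was higher by 0.17 (adjusted p = 0.0279). In h1 and h2, 0.625% and 0.691% of all genes were called. All 4 of these calls were lost with Xist class as a covariate, at adjusted p up to 0.244, and all 4 without WT replicate 1. Leaving out 1 library in turn, Olig1 was called in 10 of 12 fits, Olig2 in 7 and Bcas1 in 5 in h1, and Bcas1 in 8 in h2. No h1 call was left without h1 replicate 2, and 1 without h1 replicate 1 or h1 replicate 3. The h2 call on Bcas1 was also lost without h2 replicates 1 or 2 or WT replicate 2. In h2 DESeq2 also called Gpr17, of the same list, lower (log2 fold change -0.32, adjusted p = 0.00342). At an unadjusted edgeR p under 0.05, 2 genes of the list were higher and 2 lower in h2. None of 11 genes listed as ependymal was called in any mutant by either tool, with 2 at an unadjusted p under 0.05 in h4. In h4 against WT, 9 of the 11 were above 0 and the median was 0.23. Foxj1 and Tm4sf1, named by abundance, had lower log2 values of 0.08 and 0.10. The sum was 47.9 to 51.0 CPM in h4, against 43.4 to 46.8 CPM in WT.

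The genes whose log2 CPM followed each of the 10 most closely were found by Pearson correlation over the 12 libraries among 13698 genes. Differences of genotype, sex and dissection between the libraries were left in, so r is a description. Fabp7 was nearest to Mybbp1a (r = 0.98) and to Myoc (r = 0.97). Both were picked for following Fabp7 with h4 included. Their higher values in h4 than in WT, by log2 values of 0.17 and 0.50, are therefore no separate result. Eomes was nearest to Ttc21a (r = 0.95), 1.46 Mb away on chromosome 9, and to Zfp169 (r = 0.94). Neurod1 was nearest to the cerebellar granule cell genes Gabra6 (r = 0.93), a GABA receptor subunit, and Cbln3 (r = 0.92), a cerebellin. Prox1 was nearest to Twsg1 (r = 0.94) and Lhfpl2 (r = 0.92), and Mki67 to Heatr1 (r = 0.93) and Nvl (r = 0.91). Dlx1 was nearest to Kiss1r (r = 0.90) and Arvcf (r = 0.88), and Dlx2 to Isl1 (r = 0.88) and Plcg2 (r = 0.87). The nearest to Sox11 were Gpr139 (r = 0.92) and Dck (r = 0.83), to Dcx Armc5 and Ripk2 (r = 0.88 each), and to Igfbpl1 Zfp202 (r = 0.89) and Pdgfrb (r = 0.84).

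Within genotypes, no pair of the 10 genes varied together past the adjusted threshold. With genotype means removed, the 45 pairs had a median Pearson r of 0.14 over the 12 libraries, 6 had an unadjusted permutation p under 0.05 and none an adjusted one. The closest pair was Neurod1 and Prox1 (r = 0.88, Spearman rho = 0.90, permutation p = 0.0024 each, adjusted p = 0.108 each), with r = 0.77 without the 2 libraries farthest from the median of Neurod1. Around Eomes, 1 of 99 genes tested within 5 Mb was called in h4 against WT, and around Fabp7, 3 of 67, where 4.54% of all genes were. Of the 3 near Fabp7, Gja1, an astrocyte gap junction gene, rose by 0.14, while Fam184a fell by 0.22 and Spock2 by 0.13.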

How the data were processed

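Polyadenylated RNA of 12 whole brains was sequenced in paired ends with TruSeq RNA v2, per the labels' protocols, a kit that does not mark strand. Reads were processed by the authors with Bowtie2 2.2.0 and RSEM 1.2.12, per the submitters' processing notes. Their genome build is not given in the sources used here. Per gene, the deposited tables hold expected counts, TPM and FPKM, of which the FPKM values by the authors were not used. Of nonzero expected counts, 77.7% were exactly whole (tolerance 0).

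Groups came from the sample labels. Symbols and coordinates came from GENCODE M21 (GRCm38) by Ensembl identifier, matching 37607 of 38924 genes. Expected counts were rounded and filtered with filterByExpr, which kept 16493 genes and removed 22431. They were scaled by TMM (factors 0.991 to 1.012) and fitted with edgeR 4.0.16 (robust quasi-likelihood, R 4.3.3) in 1 model of 12 libraries with 7 comparisons. The biological coefficient of variation was 0.053. P-values were adjusted by Benjamini-Hochberg over all genes tested, and called means an adjusted p under 0.05. CPM is the expected count scaled to a common library total, and an SE is the fold change divided by the root of F, with 95% intervals from the normal distribution. The scripts were tested on simulated data. DESeq2 1.42.0, other scaling, no filter, fits of 2 groups, Xist class as a covariate, a replicate block and leaving out each library were alternatives.

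Named were all 10 members, the 2 genes most alike to each by Pearson r of log2(CPM + 0.5) among genes averaging at least 1 CPM and with no Gm or Rik symbol, up to 4 called genes per list by adjusted p (otherwise the 2 most abundant), Rorb and Xist. Cdhr1, Doc2g, Lmx1a, Tbx21, Gpr17, Slc1a2, Ntsr2, Cerkl, Gm33460, Prox1os, Dlx1as, Gja1, Fam184a and Spock2 were named outside that rule after their values were seen. The members and lists were chosen with earlier results of these data known. The design text counts 3 mice per genotype, and the p-values measure the spread between them.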

Additional observations from a re-analysis of the deposited data

Results flagged for a closer look

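For 3 of the 10 genes, the departure from WT differed between mutants by a direct edgeR test of the mutants against each other. Fabp7 differed by a log2 value of 1.17 in h4 against h1 and of 0.95 in h4 against h2. Eomes differed by 1.03 in h4 against h1 and by 1.14 in h4 against h2. Prox1 differed by 0.19 in h4 against h1. The mutants were on different background strains, so allele and strain cannot be told apart.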

How the results depend on the processing

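Precision is limited by 3 mice per genotype, by 29 to 154 expected counts per library for Eomes and Igfbpl1, and by sex, with no WT library low in Xist. DESeq2 called 1 of the 10 genes in h1 against WT, 1 in h4 against WT, 1 in h4 against h1 and 1 in h4 against h2. It gave an adjusted p to only 7 of the 10 in h1 against WT and to only 5 in each of the 3 h4 comparisons. Eomes had none in the 3 h4 comparisons, and a gene without an adjusted p could not be called. With Xist class as a covariate 1 was called in h4 against WT. Without the low-count filter, genes called were 236 in h1, 288 in h2 and 373 in the mean of mutants against WT, 290 in h2 against h1 and 844 in h4 against h2. With the covariate they were 31, 69 and 65 in h1, h2 and the mean. In h2 against h1 a fit of those groups called 193 genes and the replicate block 204, against 119; the numbers in the titles of h1 and h2 did not pair the samples (r of -0.18, -0.14 and 0.04), and no such fit was possible for h4 and WT. In h4 against WT, Kctd12 turned to -0.0024 without the filter and Igfbpl1 to 0.0452 with the covariate; the cause was not tested.

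Leaving out each library in turn, genes called ranged over 22 to 166 (h1), 18 to 348 (h2), 230 to 1111 (h4) and 18 to 505 (mean) against WT, 44 to 162 in h2 against h1, 313 to 896 in h4 against h1 and 251 to 619 in h4 against h2. Members called ranged over 0 to 1 (h1) and 1 to 2 (h4) against WT, 2 to 4 in h4 against h1 and 2 to 3 in h4 against h2. The log2 fold change changed sign over these ranges: Dlx2 -0.17 to 0.0603 in h1; Dlx2 -0.18 to 0.0517, Igfbpl1 -0.14 to 0.18 and Neurod1 -0.15 to 0.0181 in h2; and, in h4, Gad2 -0.0580 to 0.0778, Kctd12 -0.0206 to 0.0399, Igfbpl1 -0.18 to 0.12, Dcx -0.0254 to 0.10, Dlx1 -0.13 to 0.0354, Dlx2 -0.0037 to 0.23, Cdhr1 -0.39 to 0.27 and Doc2g -0.73 to 0.11, all against WT, and Prox1 -0.0018 to 0.0703 in h4 against h2.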
